A study of Mus musculus with 79 samples.

Results

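Which genes set pyramidal, parvalbumin, somatostatin and VIP neurons apart from each other was measured within mice that had been through unpredictable chronic mild stress (UCMS). The libraries of these mice were taken by their labels, 39 of 79 in the series: 10 of pyramidal neurons (PYR), 9 of parvalbumin interneurons (PV), 10 of somatostatin interneurons (SST) and 10 of interneurons that make vasoactive intestinal peptide (VIP). They came from 10 male C57Bl/6J mice that were housed alone and met mild stressors such as wet bedding, restraint and predator odor for 5 weeks, with behavioural tests near the end. The other 40 libraries came from 10 male C57Bl/6J control mice, housed with littermates and not stressed, so that housing and stress cannot be told apart between the arms. The sources used here give no ages. Each library held 130 cells of 1 type from the medial prefrontal cortex of 1 mouse, found in brain sections with RNAscope probes and cut out by laser, and total RNA was prepared with a stranded kit for picogram input. Each mouse gave all 4 types, except mouse U609, from which there was no PV library. Whether libraries of 1 type were cut or prepared together is not given, so such a grouping and the type cannot be told apart.

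Pyramidal neurons are the excitatory, glutamate-releasing projection cells of the cortex, and the other 3 types release GABA. Parvalbumin cells fire fast and mainly inhibit near the soma of their targets, somatostatin cells inhibit dendrites, and VIP cells mainly inhibit other interneurons. Parvalbumin and somatostatin cells are born in the medial ganglionic eminence of the embryonic brain and VIP cells in the caudal ganglionic eminence, and each lineage keeps part of its set of transcription factors in the adult.

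The values are normalized counts, that is reads divided by a size factor per library. Where 3 normalized counts stand together, they are the lowest, the median and the highest library of the group, and a log2 difference stands with its standard error after ±. Libraries of UCMS mice held 4529119 to 13529571 reads. The genes that define the types checked the labels and are no result. Slc17a7, the vesicular glutamate transporter of pyramidal cells, stood at 10372, 12927 and 14522 in PYR, 1502, 2616 and 3947 in PV, 1765, 3076 and 4562 in SST and 3788, 4699.9 and 6865 in VIP. For Slc17a7 each library labelled PYR was above each other library, but the gene was far from 0 in all interneuron libraries, and the part of pyramidal RNA in their values was not tested. Pvalb reached 412, 986 and 1354 in PV libraries and at most 115 elsewhere. Sst reached 9869, 12283 and 16334 in SST libraries and at most 596 elsewhere, and Vip reached 2459, 4359 and 6607 in VIP libraries and at most 110.4 elsewhere. All 39 libraries correlated best with the mean profile of their own type. The VIP libraries of mice U601 and U602 correlated least with it, at r = 0.753 and 0.737 across genes, and the VIP calls are also given without them. That of U601 had the fewest genes detected of the 39, at 9636, and that of U602 had the fewest reads, at 4529119.

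Across 17638 genes, each type was set against the average of the other 3, with the mouse as a block. A gene was called when it differed at an adjusted p under 0.05 and by at least 2-fold, and it was said to be set apart when it also differed from each of the other 3 types. PYR neurons had 456 genes higher (2.59% of those tested) and 422 lower (2.39%), of which 91 (0.516%) and 141 (0.799%) were set apart. PV neurons had the most calls, 486 higher (2.76%) and 814 lower (4.62%), with 144 (0.816%) and 202 (1.15%) set apart. SST neurons had the fewest, 267 higher (1.51%) and 104 lower (0.59%), with 56 (0.317%) and 21 (0.119%) set apart. VIP neurons had 475 higher (2.69%) and 257 lower (1.46%), with 105 (0.595%) and 16 (0.0907%) set apart. Counts of called list members given below are to be read against these shares. The split of the PV calls was 579 higher and 655 lower under quantile normalization, 388 and 473 with edgeR on recovered reads, and 776 and 1768 with DESeq2, so that lower genes were in excess under each. That of the VIP calls moved to 430 higher and 373 lower under quantile normalization and to 378 higher and 94 lower with edgeR. With DESeq2 the VIP calls were 1213 higher and 428 lower, and the SST calls 620 and 482. With only genes of a mean of at least 50 normalized counts, VIP neurons had 337 higher and 265 lower genes. Without the VIP libraries of U601 and U602 VIP neurons had 414 higher and 150 lower genes. Fewer genes were detected in PV libraries, with medians of 13790 in PV, 16186.5 in PYR, 14799.5 in SST and 14942.5 in VIP. With all libraries thinned to the same number of reads PV neurons had 488 higher and 811 lower genes. Thinning made only the reads equal, and the part of gene detection in the lower calls was not tested. In these libraries of 130 pooled cells, fewer cells that hold a transcript and less of it per cell cannot be told apart.

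**Figure D1:**
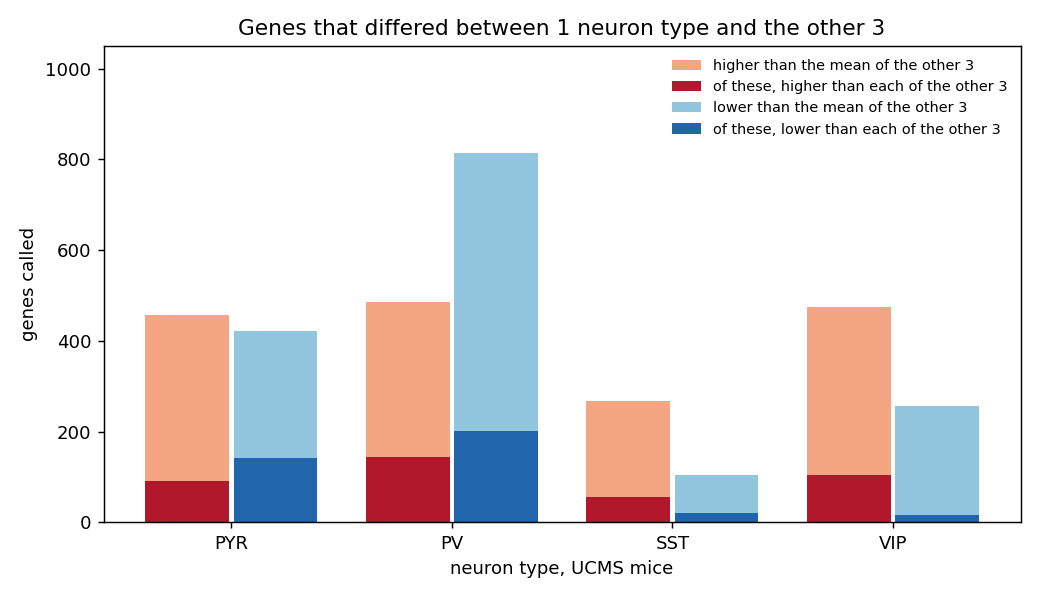
Number of genes called (vertical axis) in each neuron type against the mean of the other 3 in UCMS mice, with higher genes in red and lower genes in blue, and in darker shade those that also differed from each of the other 3 types. PV neurons had more lower genes (814) than higher ones (486), and SST and VIP neurons had few genes lower than in each other type (21 and 16).

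The rank of each type was also counted mouse by mouse. The genes set apart were chosen as higher or lower in these same libraries, so the ranks describe them and are no further support. The share of all genes tested that ranked so in every mouse was not counted. Of the 91 genes set apart as higher in PYR neurons, 43 were highest in PYR in every mouse, as were 80 of 144 in PV, 31 of 56 in SST and 48 of 105 in VIP neurons. For 15 PYR, 42 PV, 12 SST and 26 VIP genes, each library of the type was above each library of the other 3. Over all genes tested the share without overlap was 0.113%, 0.283%, 0.0794% and 0.159% for PYR, PV, SST and VIP. Among genes set apart as lower, 45 of 141 were lowest in PYR in every mouse, 47 of 202 in PV, 5 of 21 in SST and 1 of 16 in VIP neurons. Here and below, mouse U609 was ranked without a PV library. Ranks of PYR, SST and VIP libraries over 10 mice therefore met a PV library in 9.

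In pyramidal neurons of stressed mice, a synaptic vesicle protein, a pentraxin receptor, a secreted glycoprotein and a calcium pump led the genes set apart as higher. Sv2b, a synaptic vesicle glycoprotein (ENSMUSG00000053025, in GRCm38 on chromosome 7 from 75114894 to 75309262, minus strand), had 6231, 7714 and 9294 normalized counts in PYR libraries, against 562, 1610.3 and 3324 in the other 29. The groups did not overlap, and the log2 difference was 2.27 ± 0.12 (adjusted p = 2.1e-38). Nptxr, a receptor of neuronal pentraxins that gather AMPA receptors at synapses, had 6706, 10091 and 12067 in PYR libraries, against 1157, 3209 and 7454 in the others. The ranges met only at VIP libraries, and PYR was highest in all 10 mice (log2 difference 1.51 ± 0.09, adjusted p = 2.3e-24). Nell2, a secreted glycoprotein of neurons, had 4569.9, 4974 and 5762 in PYR against 259, 1550.4 and 3923 elsewhere, and Atp2b1, a pump that carries calcium out of the cell, had 5169, 5974 and 6565 against 1285, 2457 and 4252. Neither overlapped, at log2 differences of 1.80 ± 0.14 and 1.32 ± 0.10.

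Channel, signalling and release genes followed in PYR neurons. Cacna1e, the pore of R-type calcium channels, had a median of 7857 normalized counts in PYR, 1788 in PV, 5422 in SST and 5466 in VIP, and a log2 difference of 1.11 ± 0.09. Arpp21, a cAMP-regulated phosphoprotein, had medians of 3819 in PYR, 807 in PV, 1044 in SST and 2430.1 in VIP (1.73 ± 0.14). Olfm1, an olfactomedin of synapses, rose by 1.06 ± 0.08 on the log2 scale, and Lingo1, a membrane protein that limits axon growth, by 1.94 ± 0.15. For Lingo1 each library of another type lay below the PYR range. Stx1a, the syntaxin of synaptic vesicle fusion, had 1492, 2137 and 2658 in PYR against 172, 695 and 1281 in the others, again without overlap (1.76 ± 0.19, adjusted p = 2.9e-15).

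Markers of glutamatergic cells and their transcription factors were also called in PYR neurons. Of 20 glutamatergic and pyramidal markers, 12 rose and 0 fell in PYR neurons (median log2 difference 1.59, against 0.0431 over all genes tested). Of 20 pyramidal transcription factors, 8 rose and 1 fell. Tbr1, a T-box factor of corticothalamic cells, had 489, 818 and 1505 in PYR libraries against 25.1, 258 and 577 in the others and was highest in all 10 mice (log2 difference 1.84 ± 0.32). Lmo4 rose by 1.86 ± 0.25 and the neurogenic factor Neurod6 by 2.91 ± 0.55, and both overlapped with other types. Cux1, a factor of upper cortical layers in the pyramidal lineage, fell (-1.20 ± 0.24), with 109, 339.8 and 1264 in PYR against 369, 719.7 and 1482 elsewhere.

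Peptides split between PYR neurons and interneurons. Of 17 neuropeptide and growth factor genes, 4 rose and 8 fell in PYR neurons. Bdnf, the growth factor that binds TrkB, had 67.2, 143 and 344 normalized counts in PYR libraries, against 0, 0 and 5.1 in PV, 0, 2.28 and 66 in SST and 0, 19.4 and 83.8 in VIP. It was highest in PYR in all 10 mice, with overlap at VIP libraries only, and the log2 difference was 4.12 ± 0.69 (adjusted p = 6.3e-07). The other risers, named after their values were seen, were Cck (1.10), Grp (2.66) and Adcyap1 (2.59), which encode cholecystokinin, gastrin-releasing peptide and PACAP. Among receptors, Crhr1, which binds the stress peptide CRH, had 0, 210.2 and 383 in PYR against 0, 9.32 and 266 elsewhere and was highest in PYR in 8 of 10 mice (2.97 ± 0.72, adjusted p = 0.00146). Vipr1, a receptor of VIP, had a log2 difference of 1.86 ± 0.51 and was not higher than each of the other types, and Adcyap1r1, the PACAP receptor, was lowest in PYR in all 10 mice (-1.26 ± 0.15).

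Immediate early genes, which neurons switch on after activity, were called higher in pyramidal and lower in parvalbumin neurons. Of 18 tested, 8 rose and 0 fell in PYR (median log2 difference 1.11), and none was set apart from each other type. Egr1 had 308, 1088 and 1399 normalized counts in PYR, 33.2, 243 and 531 in PV, 332, 592 and 852 in SST and 395, 519 and 758 in VIP. The ranges overlapped in each pair of types (log2 difference 1.22 ± 0.25, adjusted p = 5.8e-05). Nr4a3 (2.09 ± 0.49), Arc (1.29 ± 0.34) and Egr3 (2.15 ± 0.59) also rose in PYR. In PV neurons 0 of 18 rose and 6 fell (median -1.27, with -0.179 over all genes), among them Egr1 (-1.59 ± 0.26) and Nr4a1 (-1.73 ± 0.35), which were lower than in each other type. In SST neurons 0 rose and 0 fell, and in VIP neurons Fos rose (2.06 ± 0.68, adjusted p = 0.0433) and Jun fell (-1.42 ± 0.47, adjusted p = 0.0445). Both VIP calls were lost without the libraries of U601 and U602 (Fos 1.80 and Jun -1.15). The animals also went through behavioural tests, and the part of these in the levels was not tested.

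The lowest genes of pyramidal neurons included those of GABA synthesis and of interneuron specification. All 12 pan-GABAergic markers fell in PYR (median log2 difference -4.99). Gad1, which makes GABA from glutamate, had 3.47, 102 and 335 normalized counts in PYR libraries against 2108, 3714 and 12796 in the other types, and Gad2, the synaptic form of that enzyme, had 44, 91.6 and 229 against 1265, 3188 and 5030.3. No PYR library reached an interneuron library for either gene, at log2 differences of -5.66 ± 0.27 and -4.82 ± 0.16. Dlx1, a homeobox factor of interneurons, was at 0 in 3 PYR libraries and had 0, 5.29 and 32.3 there, against 221, 684 and 2328 elsewhere. Kcnip1, a potassium channel partner, and Grik1 and Grin2d, which encode a kainate and an NMDA receptor subunit, fell without overlap too (-6.05 ± 0.42, -5.02 ± 0.30 and -4.02 ± 0.35). Maf, a bZIP factor of interneurons, fell without overlap as well (-4.90 ± 0.45).

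**Figure D2:**
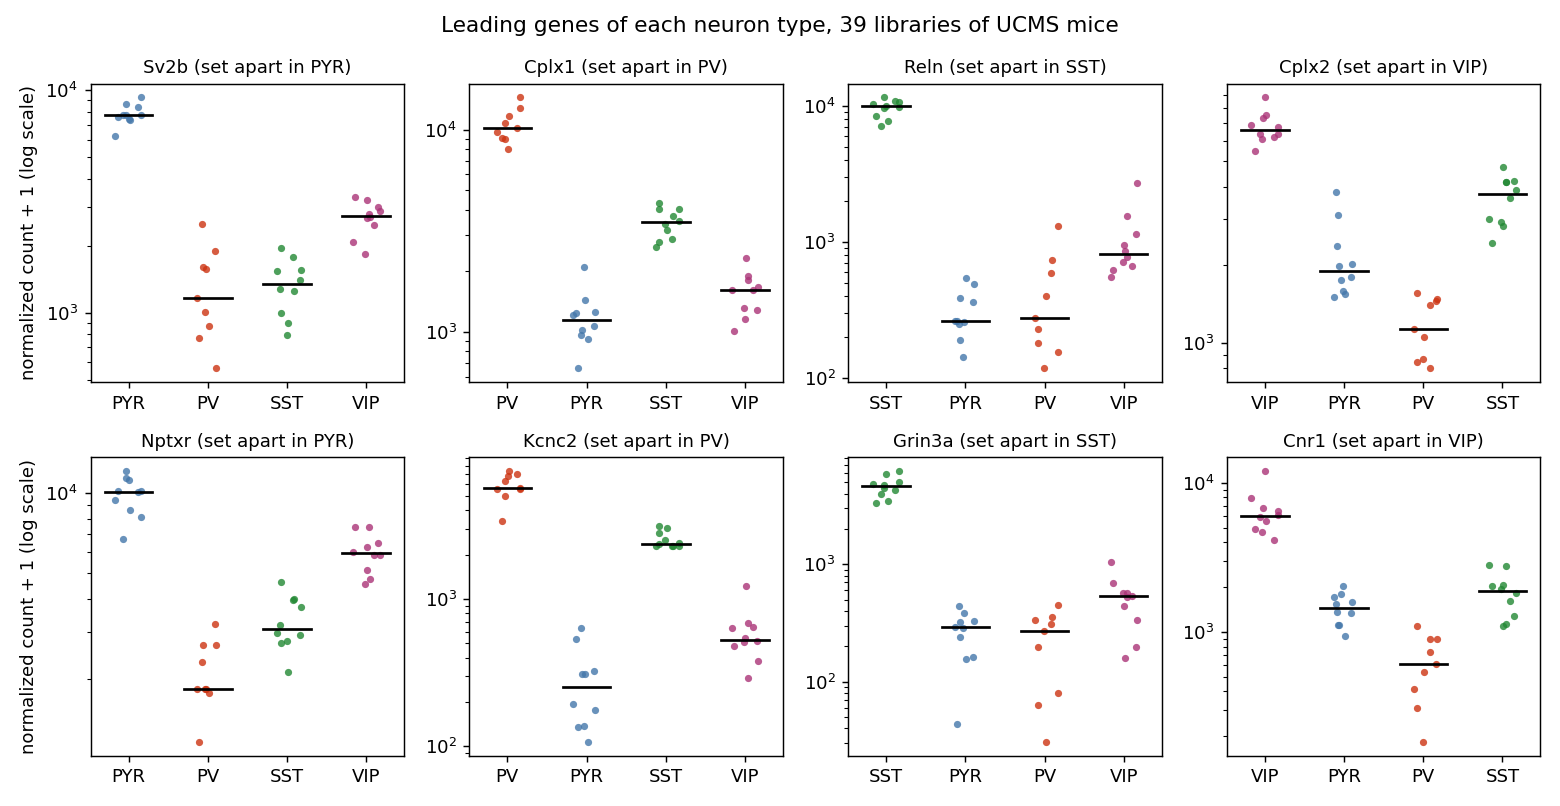
Normalized count + 1 (vertical axis, log scale) of 2 leading genes for each neuron type in the 39 libraries of UCMS mice, with the type of the panel at the left, libraries as points and medians as bars. From left to right the panels show PYR (Sv2b, Nptxr), PV (Cplx1, Kcnc2), SST (Reln, Grin3a) and VIP (Cplx2, Cnr1), and each of the 8 genes was highest in its type in every mouse.

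Parvalbumin neurons were set apart by genes of ion channels, vesicle release and GABA handling. Cplx1, a complexin that acts in vesicle fusion (ENSMUSG00000033615, chromosome 5 from 108518554 to 108550024, minus strand), had 7975, 10218 and 14475 normalized counts in PV libraries against 658, 1633 and 4359 in the other 30. Kcnc2 and Kcnc1, the Kv3 potassium channels that shorten the action potential, had 3381, 5627 and 7387 against 106, 589 and 3142 and 5212, 7311 and 9256 against 340.2, 1987 and 3948. The groups did not overlap for any of the 3, at log2 differences of 2.60 ± 0.11, 3.04 ± 0.18 and 2.08 ± 0.12 (adjusted p = 9.2e-56, 2.1e-33 and 1.3e-33). The sodium channel Scn1a (1.88 ± 0.12) and the axonal potassium channel Kcna2 (1.56 ± 0.10) were also highest in PV in all 9 mice without overlap. Syt2, the calcium sensor of fast GABA release, had 1137, 3326 and 4906 in PV against 0, 2.3 and 160.2 elsewhere. It was listed at 0 in 8 of the other 30 libraries, so its fitted log2 difference of 7.87 ± 0.70 depends on the pseudocount of 4.

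Ion channel genes differed in both directions in PV neurons. Of 40 potassium and HCN channel genes, 11 rose and 7 fell, and of 12 sodium channel genes 4 rose and 3 fell. Scn2a, a sodium channel of axons, had 1591, 2547 and 3824 in PV against 5182, 6158 and 8431 over PYR, SST and VIP libraries, without overlap (-1.34 ± 0.08). The subunit Scn3b fell (-2.71 ± 0.30). Of 19 calcium channel genes 2 rose and 9 fell. Cacna1e had 754, 1788 and 2220 in PV against 4180.1, 6121 and 8442 in the others, again without overlap (-1.96 ± 0.09, adjusted p = 2.2e-44), and the T-type channel Cacna1g (-1.92 ± 0.15) and the auxiliary subunit Cacna2d3 (-2.79 ± 0.21) were lowest in PV in all 9 mice. Cacna2d2, another auxiliary subunit, rose by 2.95 ± 0.32, at 431, 1675 and 2473 in PV. SST libraries lay within that range, at 937, 1185 and 1829.

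GABA handling, receptors and matrix also marked PV neurons. Gad1 had 9306, 9926 and 12796 in PV against 3.47, 3132 and 5117 elsewhere and no overlap (3.33 ± 0.29), while Gad2 (1.72 ± 0.17) was not higher than in each other type, with medians of 3192 in PV and 4440 in SST. Erbb4, the neuregulin receptor, was highest in PV in all 9 mice, at medians of 8896 in PV and 4501 in VIP, and PV and VIP did not differ past the threshold (log2 difference 0.92, adjusted p = 0.128). Of 17 GABA receptor genes 5 rose and 2 fell. Gabrd, the delta subunit of extrasynaptic receptors, had 323, 441 and 766 in PV against 0, 51.4 and 415 elsewhere (3.30 ± 0.63), and Gabra2 fell to 7.15, 63.6 and 304 against 111, 637 and 1433 (-3.16 ± 0.31). Of 13 genes of the perineuronal net, the matrix that wraps these cells, 4 rose and 0 fell. The link protein Hapln4 (2.49 ± 0.33), the proteoglycans Bcan (1.61 ± 0.28) and Acan (3.04 ± 0.76) and the protease Adamts15 (3.68 ± 0.74) made up that count. Acan was low, at 1.19, 151 and 549.7 in PV against 0, 0.82 and 129 elsewhere, and its ranges overlapped.

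Of 15 parvalbumin neuron markers, 14 rose in PV neurons, 13 of them above each other type (median log2 difference 3.04). Pthlh was the marker that was not called in PV. It was set apart in VIP neurons (3.42) and is named here after its values were seen. Tac1, the precursor of substance P, had 32.4, 364 and 1165 in PV against 0, 0 and 105 elsewhere and was highest in PV in all 9 mice (5.43 ± 0.73). Lgi2, a secreted protein, had 2148, 2899.5 and 5337 against 33.2, 546 and 1861 and no overlap (2.85 ± 0.22). Among receptors, the delta opioid receptor Oprd1 had medians of 963 in PV and 452 in SST, with 156 in PYR and 93.3 in VIP (2.66 ± 0.40). Of 23 amine, acetylcholine and cannabinoid receptors 2 rose and 6 fell. The cannabinoid receptor Cnr1 had 182, 610.1 and 1095 in PV against 934, 1989.8 and 12021 elsewhere and was lowest in PV in all 9 mice (-2.19 ± 0.16). Nptxr (-1.47 ± 0.10), the complexin Cplx2 (-1.62 ± 0.11) and the vesicle protein Synpr (-5.21 ± 0.47) were lower in PV than in each other type.

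Part of the genes of mitochondrial respiration were higher in PV neurons. Of 88 nuclear-encoded oxidative phosphorylation genes, 13 rose and 0 fell in PV (median log2 difference 0.743, against -0.179 over all genes), and 77 were positive. The median was 0.808 under quantile normalization and 0.727 when scaled to protein-coding reads. Cycs, cytochrome c, had 359, 898 and 1584 normalized counts in PV against 15.9, 351 and 798 elsewhere (1.55 ± 0.34). Atp5j, an ATP synthase subunit, was highest in PV in all 9 mice (1.05 ± 0.22) and Ndufb10, of complex I, in 8 of 9 (1.26 ± 0.27). Both ranges overlapped with other types. Cox6a2, a cytochrome oxidase subunit, had 0, 90.1 and 261 in PV and was listed at 0 in 24 of the other 30 libraries (3.63 ± 0.66). Many genes of this list have near-identical pseudogene copies, and their values are uncertain in so far as the counting split reads among copies.

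Transcripts of the 13 proteins encoded in mitochondrial DNA were also higher in PV neurons, though none reached 2-fold there. Their summed normalized count was 96448, 133677 and 163476 in PV, 58965, 68517 and 93251 in PYR, 61069, 78447 and 101006 in SST and 82004, 92716 and 109348 in VIP. In PV neurons 12 of the 13 were higher at the adjusted p threshold alone, at a median log2 difference of 0.662. In PYR neurons 10 of 13 were lower at that threshold (median -0.412). In VIP neurons nuclear respiration genes had 0 higher and 4 lower calls (median -0.535), and 8 of 88 were positive. Ndufb5 (-1.63 ± 0.45), Cyc1 (-1.18 ± 0.33), Ndufaf4 (-1.99 ± 0.60) and Atp5l (-1.27 ± 0.42) were those that fell. Of these, Ndufb5, Ndufaf4 and Atp5l lost their call without the VIP libraries of U601 and U602. Cytosolic ribosomal protein genes had 0 calls in PYR, SST and VIP and 1 of 76 in PV neurons, Rpl36a (-1.46 ± 0.48, adjusted p = 0.0287).

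**Figure D3:**
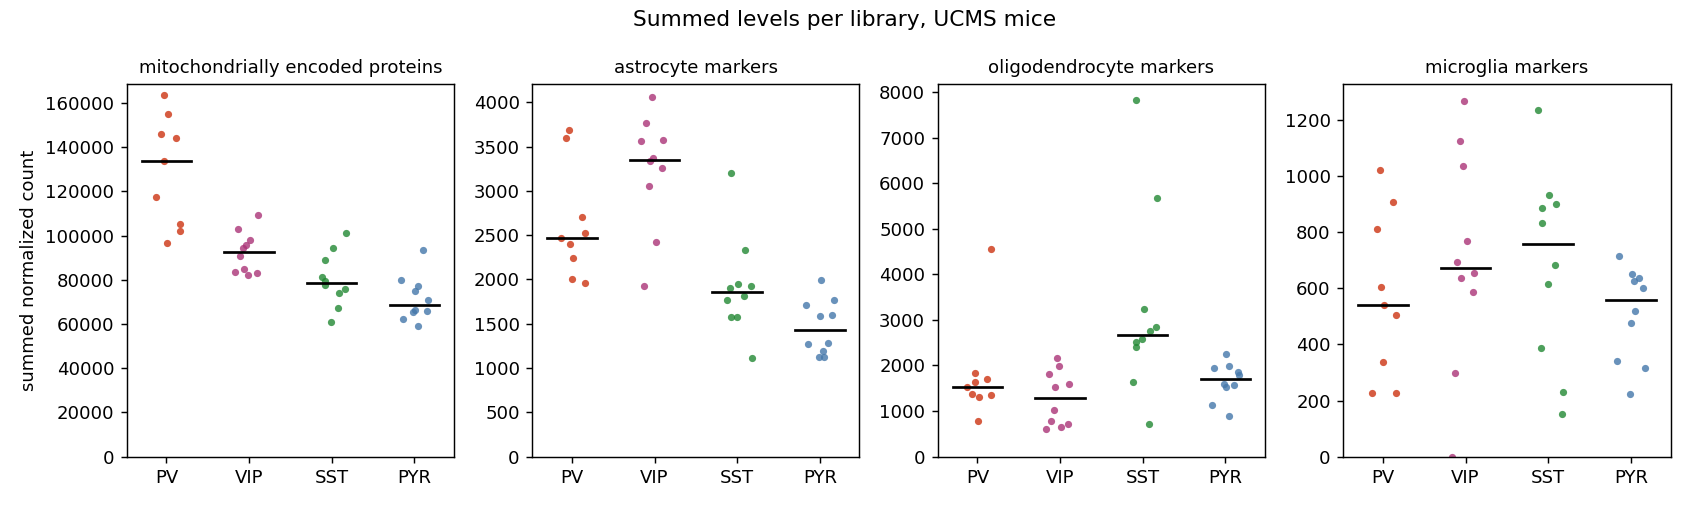
Summed normalized counts (vertical axis) of the mitochondrially encoded proteins and of astrocyte, oligodendrocyte and microglia markers in each of the 39 libraries of UCMS mice, by neuron type, with libraries as points and medians as bars. The mitochondrial sums had their highest median in PV, the astrocyte sums had theirs in VIP and the lowest in PYR, and 1 VIP library had a microglia sum of 0.

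Somatostatin neurons were set apart by glutamate receptors, peptides and nitric oxide synthase. Reln, the extracellular matrix protein reelin (ENSMUSG00000042453, chromosome 5 from 21884454 to 22344702, minus strand), had 7117, 9897 and 11576 normalized counts in SST libraries against 117, 491 and 2719.7 in the other 29. Grin3a, an NMDA receptor subunit that lowers calcium entry, had 3345, 4617 and 6235 against 29.6, 323 and 1041. Neither gene overlapped between SST and the other types, at log2 differences of 4.40 ± 0.18 (adjusted p = 4.4e-54) and 4.15 ± 0.24 (adjusted p = 3.2e-37). Elfn1, a postsynaptic protein that shapes excitatory input to these cells, had 1573, 2571 and 4059 in SST, 38.6, 128 and 181 in PYR, 46.7, 116 and 376 in PV and 871, 1048 and 1772 in VIP libraries. The log2 difference was 3.42 ± 0.26 in SST, and it was also called higher in VIP neurons (1.86 ± 0.26), whose libraries lay between SST and the rest with some overlap with SST. Nos1, which makes nitric oxide, had 1668, 3758 and 5913 in SST against 101, 701 and 1280.3 elsewhere and no overlap (2.58 ± 0.21).

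Of 26 genes for glutamate receptors and their partners, 8 rose and 0 fell in SST neurons (median log2 difference 0.289, against 0.0184 over all genes). Grik1, a kainate receptor subunit, had medians of 2036 in SST, 963 in PV, 605.2 in VIP and 37.8 in PYR libraries (3.03 ± 0.30). Neto1, an auxiliary subunit of kainate receptors, was highest in SST in 9 of 10 mice (1.68 ± 0.17). In the same list PV neurons had 8 lower and 4 higher calls. The presynaptic receptors Grm7 (-1.93 ± 0.22) and Grm8 (-3.04 ± 0.40) were lower in PV than in each other type.

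Of 17 neuropeptide and growth factor genes, 4 rose and 1 fell in SST neurons. Npy, neuropeptide Y, had 1872, 2469 and 4089 in SST libraries, against 85.7, 173 and 649.8 in PV, 0, 131 and 460.3 in VIP and 0, 8.79 and 52.1 in PYR libraries. Pdyn, the precursor of dynorphins, had 412, 739 and 1546 against 0, 19.9 and 170 in the other types. Neither overlapped, and the log2 differences were 5.38 ± 0.47 and 5.43 ± 0.66. Cort, cortistatin, had 66.7, 136 and 221 in SST and 0, 75.4 and 177 in PV, and was at 0 in all PYR libraries (3.58 ± 0.69, a fitted value that depends on the pseudocount). SST did not differ from PV past the threshold for Cort (log2 difference 1.58, adjusted p = 0.396). Cck, the member that fell, was lowest in SST at a median of 286 (-1.68 ± 0.20). The oxytocin receptor Oxtr had 67.7, 381 and 867 in SST against 0, 28.7 and 591 elsewhere and was highest in SST in 9 of 10 mice (3.37 ± 0.66). Sstr1, a receptor of somatostatin itself (2.51 ± 0.65), and the serotonin receptor Htr1a (2.73 ± 0.64) rose in SST without being above each other type.

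Of 13 somatostatin neuron markers, 12 rose in SST neurons and 9 were above each other type (median log2 difference 3.95). The calcium-binding protein Calb1 was highest in SST in all 10 mice (2.04 ± 0.23), as was Unc13c, a vesicle priming protein, with 299.7, 945 and 1619 against 0, 118 and 315 (3.44 ± 0.50). The adhesion protein Chl1 (1.31 ± 0.13) did not overlap with the other types, and the collagen Col19a1 (2.14 ± 0.21) was highest in SST in all 10 mice. Few genes were lower in SST than in each other type. Caln1, a calcium-binding protein, had 189, 698 and 922 in SST against 886, 2082 and 4005 elsewhere and was lowest in SST in all 10 mice (-1.70 ± 0.15). The semaphorin receptor Plxna4 (-1.06 ± 0.11), the phosphatase Ptpre (-2.44 ± 0.30) and the potassium channel Kcnh7 (-1.29 ± 0.16) fell as well. Oligodendrocyte markers had their highest median sum in SST libraries, at 718, 2664 and 7821 against 898, 1693 and 2251 in PYR, 774, 1539 and 4565 in PV and 608.3, 1280.3 and 2168 in VIP. All 10 markers were positive (median log2 difference 1.04) and 0 were called in SST, Opalin had a median of 0, and their part in the SST results was not tested.

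Genes set apart as higher in VIP neurons included an RNA-binding protein, a complexin, peptides and receptors. Adarb2, a brain protein of the RNA-editing enzyme family (ENSMUSG00000052551, chromosome 13 from 8202866 to 8768747, plus strand), had 4365, 5898 and 10070 normalized counts in VIP libraries against 0, 43.2 and 198 in the other 29 (log2 difference 7.49 ± 0.53, adjusted p = 4.4e-28). Cplx2, a complexin, had 5465, 6582 and 8829 against 799.7, 1988 and 4764, and Cnr1, the cannabinoid receptor that lowers transmitter release, had 4169.5, 5998 and 12021 against 182, 1281 and 2831. None of the 3 overlapped with other types (1.72 ± 0.10 and 2.47 ± 0.15 for Cplx2 and Cnr1). Cplx1 showed the opposite order, with a median of 1608 in VIP and 10218 in PV, where Cplx2 had 6582 in VIP and 1136 in PV. The phosphatase receptor Ptprd (1.33 ± 0.10) and the zinc finger factor Zbtb16 (2.34 ± 0.21) were also without overlap. The synaptic protein Sez6 (2.12 ± 0.16) and the basic helix-loop-helix factor Tcf4 (1.10 ± 0.09) were highest in VIP in all 10 mice. For Cnr1, Adarb2, Tcf4 and Zbtb16, the library of mouse U601 lay far above the other VIP libraries.

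Of 16 markers of VIP neurons and their lineage, all rose in VIP and 10 were above each other type (median log2 difference 4.03). In PV neurons 12 of the 16 fell and 0 rose, in PYR 10 fell and 1 rose, and in SST 3 fell and 5 rose. Prox1, a homeobox factor that VIP cells keep from the caudal eminence, had 1558, 1978 and 2762 against 0, 27.5 and 179 elsewhere. Htr3a, the serotonin-gated channel, had 459.9, 681 and 1925 against 0, 0 and 71.5, and Tac2, the precursor of neurokinin B, had 589.5, 957 and 1702 against 0, 0 and 101. These 3 did not overlap (6.46 ± 0.62, 6.99 ± 0.69 and 7.19 ± 0.69). Htr3a and Tac2 were listed at 0 in 21 and 22 of the 29 other libraries, Tac2 in all PV libraries, and their fitted differences depend on the pseudocount.

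VIP neurons had more peptide genes called higher than lower. Of 17 neuropeptide and growth factor genes, 7 rose and 0 fell in VIP. Penk, the enkephalin precursor, had 641, 1075 and 3233 against 0, 40 and 216 elsewhere, with no overlap (5.20 ± 0.60). Igf1, an insulin-like growth factor, had 451, 922 and 1686 against 0, 62.7 and 469 and was highest in VIP in all 10 mice (4.52 ± 0.59). Cck, cholecystokinin, was high in both VIP and PYR neurons, at medians of 1576 in VIP, 1379.7 in PYR, 478 in PV and 286 in SST (1.57 ± 0.20). The neuropeptide Y receptor Npy2r had 13.7, 539 and 1704 in VIP against 0, 0 and 119.7 elsewhere (5.76 ± 0.71), and Npy1r (3.59 ± 0.57) was highest in VIP in all 10 mice. Grpr, the receptor of gastrin-releasing peptide, had 0, 231 and 369 in VIP and was at 0 in 24 of the 29 others (4.21 ± 0.68).

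Of 23 receptors of amines, acetylcholine and cannabinoids, 8 rose and 3 fell in VIP neurons. Beside Htr3a and Cnr1 these were led by the noradrenaline receptor Adra1b, with 213, 528 and 827 in VIP against 0, 76.8 and 313 elsewhere (3.16 ± 0.59), and the serotonin receptor Htr2c, with 243, 712 and 1182 against 0, 142 and 1287 (2.48 ± 0.49). Both overlapped with other types. Cbln2, a synapse organizer, had 473, 795 and 1719 in VIP against 0, 73.8 and 336 elsewhere and no overlap (4.03 ± 0.57). Necab2, a calcium-binding protein, was highest in VIP in 9 of 10 mice (3.09 ± 0.57). Lower in VIP than in each other type were the chromatin factor Satb1 (-1.98 ± 0.14), the nicotinic receptor modulator Lynx1 (-1.28 ± 0.15), Mpped1 (-1.27 ± 0.15) and Pcnx2 (-1.16 ± 0.15).

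Marker RNA of glia and vessels was measured beside these VIP results. Astrocyte markers summed to 1922, 3354 and 4063 in VIP libraries, against 1959, 2464 and 3686 in PV, 1115, 1855 and 3204 in SST and 1127, 1433 and 1992 in PYR libraries. Of the 10 markers 9 were positive in VIP (median log2 difference 0.906), 0 were called, and none had a median of 0 there. Of 10 endothelial and mural markers tested 9 were positive and 0 were called (median 0.671), while the endothelial markers Cldn5 and Ly6c1 had a median of 0. Of 10 oligodendrocyte markers 2 fell, Mobp (-1.54 ± 0.47) and Cnp (-1.68 ± 0.54), and both lost their call without the libraries of U601 and U602. Ptprz1, a phosphatase receptor that astrocytes and oligodendrocyte precursors also make, had 1337, 1835 and 3131 in VIP against 114, 602.03 and 1417 elsewhere (1.97 ± 0.20). In PV neurons 1 astrocyte marker was called higher, the bicarbonate transporter Slc4a4 (1.33 ± 0.24), and in PYR neurons the gap junction gene Gja1 was called lower (-1.79 ± 0.58, adjusted p = 0.0305). The part of glial RNA in the type differences was not tested.

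Transcription factors of the interneuron lineages differed between the types. Of 7 factors of the medial ganglionic eminence, 4 rose and 1 fell in PV, 5 rose and 0 fell in SST, 1 rose and 4 fell in VIP, and 1 rose and 5 fell in PYR neurons. Lhx6, a LIM homeobox factor of that lineage, had 496, 871 and 1480.5 normalized counts in PV and 645, 915 and 1456 in SST, with 0, 12.4 and 55.9 in VIP and 0, 14.8 and 53.8 in PYR libraries. PV and SST libraries all lay above VIP and PYR libraries, and the log2 differences from the other 3 types were 3.87 ± 0.55 in PV, 4.07 ± 0.53 in SST, -4.15 ± 0.53 in VIP and -3.78 ± 0.53 in PYR. Sox6 had medians of 1270.2 in PV and 1171 in SST against 44.8 in VIP and 34.7 in PYR. Both genes were high in PV and SST, and neither was set apart in either type. Members that went the other way were Maf, which rose in VIP (1.71 ± 0.45), and Tox, named after its values were seen, which fell in PV (-1.77) and rose in PYR (1.75).

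Of 8 factors of the caudal ganglionic eminence, 7 rose and 0 fell in VIP, 0 rose and 4 fell in PV, and 1 rose and 5 fell in PYR. Somatostatin neurons fell between, with 3 higher and 1 lower. Npas1, a basic helix-loop-helix factor, had 174, 462 and 1748 in VIP and 273, 799 and 984 in SST, with 0, 1.19 and 85.2 in PV and 0, 6.08 and 101 in PYR libraries. SST and VIP did not differ past the threshold (log2 difference 0.46, adjusted p = 0.822). The orphan nuclear receptor Nr2f2 had medians of 558 in VIP and 315 in SST, with 0 in PV and 1.88 in PYR. Calretinin, encoded by Calb2, had 1020.5 in VIP and 623 in SST, with 0 in PV and 0.753 in PYR. The vesicle protein Synpr had medians of 1934 in VIP and 1910.2 in SST, with 35.8 in PV and 294 in PYR. Prox1 was set apart in VIP, with a median of 46.4 in SST.

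Part of the release and adhesion genes differed between the types as well. Of 35 presynaptic release genes, 4 rose and 4 fell in PYR, 4 and 7 in PV, 4 and 2 in SST, and 3 and 3 in VIP neurons. Over all genes 2.59% rose and 2.39% fell in PYR, 2.76% and 4.62% in PV, 1.51% and 0.59% in SST, and 2.69% and 1.46% in VIP. The median log2 difference of the release list was -0.00561 in PYR, -0.166 in PV, 0.101 in SST and -0.173 in VIP. Over all genes it was 0.0431, -0.179, 0.0184 and 0.068. Rab3b, a small GTPase of vesicles, had medians of 103 in PYR, 1165 in PV, 1523 in SST and 244 in VIP, and fell in PYR (-3.63 ± 0.55). Cplx3, a further complexin, rose in VIP (2.57 ± 0.60), and Rims3, a scaffold of release sites, rose in SST (1.12 ± 0.14). Of 32 synaptic adhesion genes, 6 rose and 3 fell in PYR, 2 and 7 in PV, 2 and 1 in SST, and 3 and 2 in VIP neurons. Of the cerebellins, secreted proteins that bridge synapses, each of 3 was called higher in another type. Cbln2 led in VIP as given above, Cbln4 rose in SST, at 0, 118 and 366 against 0, 0 and 224 elsewhere (2.78 ± 0.72), and Cbln1, named after its values were seen, rose in PYR (2.23).

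Calcium-binding proteins, long used to name interneurons, also differed. Of 15 tested beside Pvalb, 1 rose and 2 fell in PYR, 0 and 5 in PV, 2 and 2 in SST, and 4 and 0 in VIP neurons. Hpca, the calcium sensor hippocalcin, rose in PYR, at 634, 1166 and 1906 against 243, 480.4 and 983 elsewhere (1.21 ± 0.22). Caln1 and Necab1 moved in opposite directions in SST and VIP, with Caln1 at -1.70 ± 0.15 in SST and 1.27 ± 0.15 in VIP and Necab1 at -1.30 ± 0.24 in SST and 1.43 ± 0.24 in VIP. Caln1 had medians of 698 in SST, 2981 in VIP, 2064 in PYR and 1239 in PV libraries. In PV neurons the lower members were led by Calb2 (-5.09 ± 0.60), Rcn1 (-3.49 ± 0.69) and Necab2 (-2.44 ± 0.60).

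**Figure D4:**
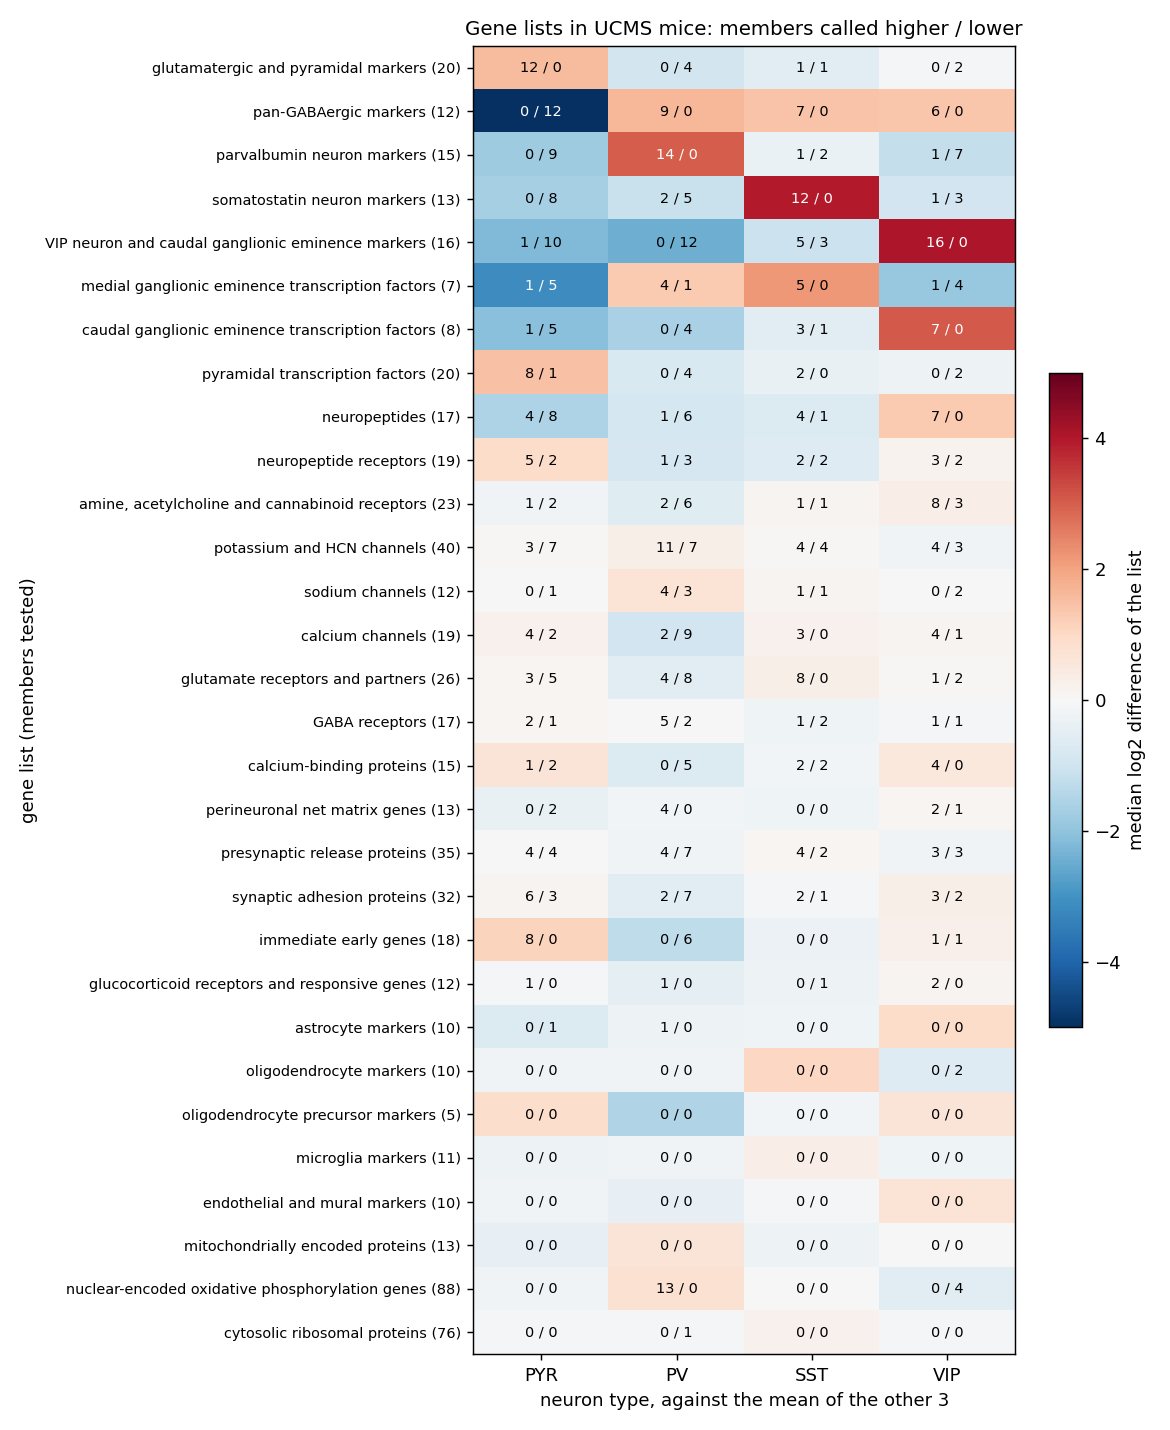
Median log2 difference of each gene list (colour, red for higher and blue for lower) in each neuron type against the mean of the other 3, in UCMS mice, with the members called higher / lower written in each cell and the number tested beside each list name. PYR neurons had all 12 pan-GABAergic markers lower, and in each interneuron type its own marker list had the highest median.

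Glucocorticoid receptor and response genes were counted in the same way. Of 12 tested, 1 rose in PYR, 1 in PV and 2 in VIP, and 1 fell in SST. Over all genes 2.59% rose in PYR, 2.76% in PV and 2.69% in VIP, and 0.59% fell in SST. Nr3c2, the mineralocorticoid receptor, had 479.7, 1063 and 1291 in VIP, 184, 494 and 813 in PV, 111, 224 and 454 in PYR and 23.8, 195 and 371 in SST libraries. It was highest in VIP in all 10 mice, 9 of which had a PV library (1.86 ± 0.30, adjusted p = 3.6e-07). Its log2 difference from PV of 1.04 missed the threshold (adjusted p = 0.0521), and it fell in SST (-1.54 ± 0.30). Sgk1, a kinase that glucocorticoids induce, had 143, 588 and 716 in PV against 0, 169 and 614 elsewhere (1.73 ± 0.44, adjusted p = 0.00231). Klf9, a zinc finger factor that glucocorticoids induce, rose in PYR (1.01 ± 0.30, adjusted p = 0.0148), a call that was lost under 9 of its alternatives. Zbtb16, already named for VIP neurons, was the other member that rose in them.

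The same comparison within the 40 control libraries was set beside that within UCMS mice. Of genes tested in both arms, 485 were called in the same direction in PYR neurons, 55.6% of the UCMS calls and 65.1% of the control calls. The numbers were 580 (44.8% and 63.4%) in PV, 173 (47.7% and 56.2%) in SST and 267 (38.1% and 55.2%) in VIP neurons. In each of the 4 types 0 genes were called in opposite directions. Of the genes set apart as higher in UCMS mice and tested in controls, 90 of 91 PYR, 143 of 143 PV, 55 of 55 SST and 101 of 103 VIP genes were positive in control mice, and 38, 74, 25 and 51 were set apart there too. For 1 of the leading genes of each type the log2 differences were 2.27 in UCMS and 2.24 in control mice for Sv2b in PYR, 2.60 and 2.37 for Cplx1 in PV, 4.40 and 4.36 for Reln in SST, and 7.49 and 8.03 for Adarb2 in VIP.

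**Figure D5:**
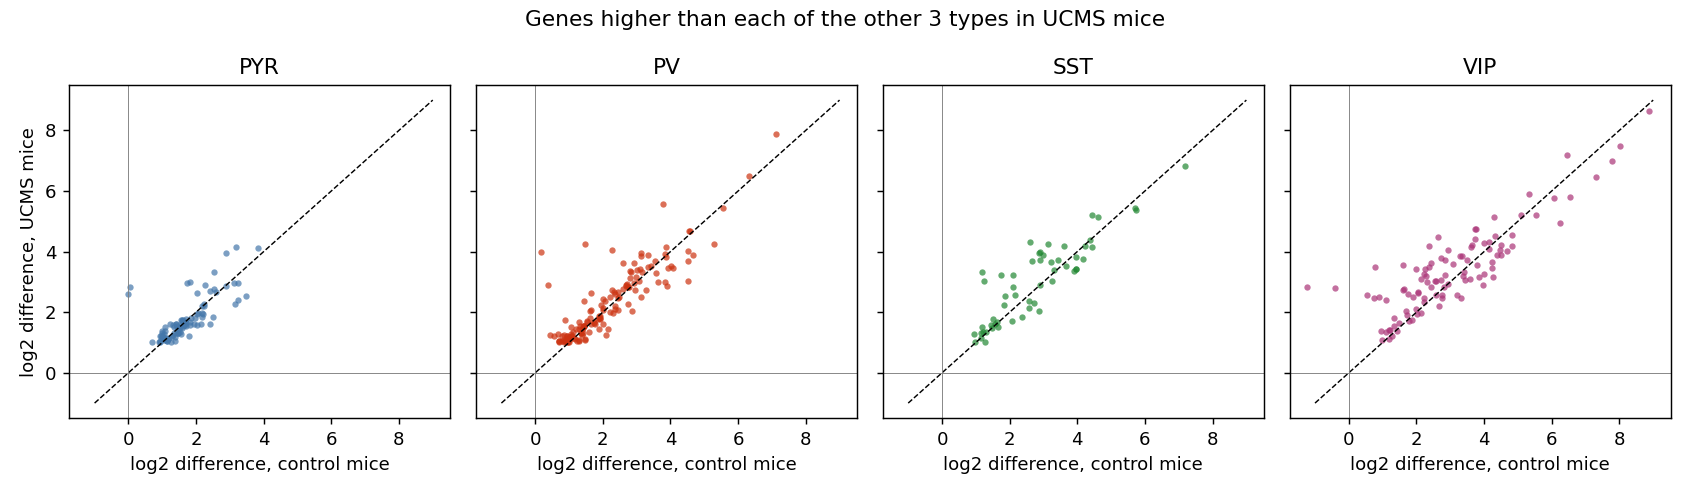
Log2 difference of each gene set apart as higher in a neuron type of UCMS mice (vertical axis) against the same difference in control mice (horizontal axis), with 1 point a gene and the line of equal values dashed. The genes were chosen for high values in UCMS mice, and 143 of 143 PV genes and 101 of 103 VIP genes lie right of 0.

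The difference between the arms was then tested itself, as the interaction of type and arm over all 79 libraries and 17427 genes. At an adjusted p under 0.05 it gave 0 genes (0%) in PYR, 0 (0%) in PV, 0 (0%) in SST and 0 (0%) in VIP neurons with limma, and 0 in each with edgeR on recovered reads. The smallest adjusted p was 1 in PYR, 0.549 in PV, 0.711 in SST and 0.261 in VIP. At an unadjusted p under 0.05 there were 575 genes in PYR, 938 in PV, 832 in SST and 1094 in VIP neurons, which is 3.3%, 5.38%, 4.77% and 6.28% of those tested. No type contrast was shown to differ between stressed and control mice at the adjusted threshold for any gene, which does not show that the contrasts are equal.

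The genes with the smallest unadjusted p of that interaction were mostly low. Srpx2, a secreted sushi-repeat protein that was at 0 in all VIP libraries of UCMS mice, had 0, 93.2 and 293 normalized counts in PV libraries of UCMS mice and 0, 0 and 102 in PV libraries of control mice. Its fitted log2 difference from the other types was 3.98 in UCMS and 0.16 in control mice, and the interaction did not pass (3.82 ± 0.90, adjusted p = 0.549). Rspo2, a Wnt signalling enhancer, had 0, 25.4 and 193 in PV of UCMS mice and 27.8, 153 and 312 in PV of control mice (interaction -3.24 ± 0.87, adjusted p = 0.667). Adamts14, a protease that processes collagen, had 0, 52.2 and 488 in VIP of UCMS mice and 0, 0 and 40.8 in VIP of control mice (3.22 ± 0.82, adjusted p = 0.569). The ranges of the arms overlapped for each of these genes. Bicd1, an adaptor of dynein, had 348, 585 and 1182 in SST of UCMS mice and 666, 1088 and 1978 in SST of control mice (-1.24 ± 0.31, adjusted p = 0.711). In PYR neurons Pqlc3, Zcchc9 and Card19 had the smallest p, each at an adjusted p of 1.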

How the data were processed

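Total RNA-seq libraries of 130 cells each were analysed from a table of 38879 genes. The authors deposited normalized counts, a signal of gene reads divided by a size factor per library. Per the submitters' processing notes, the tools were HISAT2, SAMtools 1.3 and DESeq2 and the build was GRCm38 (mm10). No source used here gives the read counter, its annotation or its strand setting, so a gene and an antisense partner cannot be told apart. Whole reads were recovered from the smallest step of each library, with 100% of values whole within 0.001. Gene types came from GENCODE M21, which held 38636 of the identifiers.

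Genes with a mean of at least 10 normalized counts were fitted with limma 3.58.1 (R 4.3.3; trend, robust empirical Bayes) on log2(normalized count + 4), with type and mouse as terms. A log2 difference on this scale understates the change of low genes. Each type was set against the mean of the other 3, with Benjamini-Hochberg adjustment over all genes. The spread is over 10 mice (9 for PV), and the mouse block follows the labels, which give the same mouse for libraries of 4 types. Deviations of libraries from the same mouse correlated little (median r = 0.00535 over 57 pairs, none over 0.1). Those of libraries from different mice had a median r of -0.00157, so the pairing rests on the labels alone. Alternatives changed the block, pseudocount, filter, scaling and mice, and used edgeR 4.0.16 and DESeq2 1.42.0 on recovered reads. The pipeline was tested on simulated data.

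Named genes were, per type, the 8 highest and 4 lowest statistics among genes set apart, up to 4 called members of each list, and the 3 smallest p of the difference between arms. Some genes that the rule names are not reported here. Unnamed gene models were counted only, and others are marked as named after their values were seen. The comparisons, members and lists were chosen with earlier results of these data known, and some lists came from an earlier analysis of them. Counts of called list members are therefore descriptions and no independent evidence for the types.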

Additional observations from a re-analysis of the deposited data

Results flagged for a closer look

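Libraries that lay far from the others of their type were looked for in 100 groups of values in UCMS mice, and 11 were found. How many chance would give was not tested. In PYR, the library of U607 had the fewest reads (6148700), that of U610 had 69.67% of its reads in protein-coding genes, where the next highest had 65.561%, and that of U609 had 96.052 normalized counts of Pvalb, which was at 0 in the other 9. In PV, the library of U604 had an oligodendrocyte marker sum of 4565, where the next highest had 1826.5, and 13.875 normalized counts of Vip, where the next had 4.0478. In SST, the library of U609 had 110.38 normalized counts of Vip, where the next had 35.112. In VIP, the library of U602 had a sum of 2069.6 over markers of oligodendrocyte precursors, where the next had 981.1. The VIP library of U601 had the fewest genes detected of the 39, at 9636. It had 12021 normalized counts of Cnr1, 10070 of Adarb2, 9142.7 of Tcf4 and 4627 of Zbtb16. The next highest VIP libraries had 7887.4, 6992.8, 6979.2 and 3025.8. Without the VIP libraries of U601 and U602 these 4 genes stayed past the threshold in the same direction.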

How the results depend on the processing

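The total calls per type, the genes set apart as higher and the calls shared with control mice moved by more than 1.5 times only with edgeR and DESeq2 among the alternatives run. The genes called lower in VIP neurons, 257 with all libraries, were 150 without the VIP libraries of U601 and U602. With the filter at a mean of 50 PYR neurons had 391 higher and 419 lower genes, where they had 456 and 422. VIP neurons had 337 higher and 265 lower with it, where they had 475 and 257. Their genes set apart as higher were 78, where they were 105. With edgeR the calls were 861 in PV and 472 in VIP neurons, the genes set apart as higher 33 in SST and 43 in VIP, and the calls shared with control mice 368 in PV and 173 in VIP. With DESeq2 the calls were 1770 in PYR, 2544 in PV, 1102 in SST and 1641 in VIP, with 172 set apart as higher in VIP, and the cause was not tested. Without the replicate block the calls were 880 in PYR, 1292 in PV, 365 in SST and 715 in VIP, and it changed no call count by more than 1.5 times. Leaving out each mouse in turn gave 754 to 851 calls in PYR, 1096 to 1396 in PV, 325 to 376 in SST and at most 724 in VIP, each within 1.5 times the count with all mice, and 71 to 85, 110 to 149, 42 to 52 and 82 to 98 genes set apart as higher in PYR, PV, SST and VIP. Of 5981 alternative values for 285 pairs of type and named gene, 5762 kept their side and direction, 219 lost the call and 0 reversed. Of the 219, 122 came from leaving out a mouse, and 40 of the 285 pairs lost the call with edgeR. The pairs were chosen among called genes by their statistics, so that most stayed called is no independent evidence. Quantile normalization moved the median of all genes in PV to -0.0611, where it was -0.179. Alternatives chosen after seeing the data gave, for PYR, PV, SST and VIP, 876, 1299, 365 and 724 calls with reads thinned to the lowest total and 903, 1319, 376 and 722 with scaling to protein-coding reads. Without the VIP libraries of U601 and U602 they were 941, 1471, 406 and 564. Genes near 0 in a group rest on few reads, and a total of 130 cells per library limits what could be detected of them.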
